A study of Mus musculus with 10 samples.

Results

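The genes of meiotic recombination described here were chosen by symbol (Spo11, Dmc1, Msh4, Msh5, Mlh3, Mei1, Trip13, Mnd1 and Psmc3ip), and 8 of the 9 had a transcript cluster of their own among the 20174 genes tested. A transcript cluster is the set of array probes that reads 1 gene, and each of the 8 genes had only 1 such cluster with its exact symbol. Mnd1 lay on a cluster shared with Gm3833, so its signal could not be assigned to 1 gene, and it was left out of every count.

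In meiotic recombination, the enzyme SPO11 cuts both strands of the DNA, the strand exchange protein DMC1 with its helper pair PSMC3IP and MND1 pairs the cut end with the homologous chromosome, and MSH4, MSH5 and MLH3 turn part of the resulting joints into crossovers. TRIP13 remodels proteins of the chromosome axis during this process, and it also acts on a spindle checkpoint protein in dividing cells. In the testis these events belong to spermatocytes in meiotic prophase, whereas spermatogonial stem cells divide by mitosis.

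RNA was measured on 10 Affymetrix Mouse Gene 1.0 ST arrays, 2 for each of 5 groups. Testis cells of adult DBA/2 mice, sorted with magnetic beads for the surface protein CD9, made up the 0 week group. Sorted cells were then cultured for 1, 2 or 3 weeks with the growth factors GDNF (15 ng/ml) and FGF2 (10 ng/ml) in medium holding 1% serum. The last group was DBA/2 GS (germline stem) cells, an established culture of spermatogonial stem cells grown in that medium. The labels name no genotype, allele or transgene, give no number of animals or GS lines, and do not say that the 2 arrays of a group came from separate cultures, so every p-value rests on array-to-array spread alone, which may be technical.

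The labels call every group spermatogonial stem cells. The signals of 16 markers of undifferentiated spermatogonia summed to 3251 and 3254 at 0 weeks, 4385 to 4504 at 1 week, 11803 to 11872 at 2 weeks, 8882 to 9120 at 3 weeks and 13027 to 13155 in GS cells. The 9 measured of 10 spermatid markers summed to 29944 to 30933 at 0 weeks, 928 to 1117 at 1 week and 614 to 794 in the later groups. The 9 measured of 10 pachytene spermatocyte markers summed to 853 to 986 in the cultured groups, against 20107 to 20217 at 0 weeks, so the 0 week cells carried RNA of later germ cells that the cultures had at far lower levels. No marker signal was at 0, as the lowest signal of any array was 30.1 to 30.4. Replicate arrays correlated at r = 0.991 to 0.998 across genes, which are not independent replicates, against 0.707 to 0.984 between arrays of different groups. Across arrays the lower quartile of the signals lay between 59.5 and 73.7 and the median between 112 and 125.3, and the files give no level of background beside them.

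Several members were dim on these arrays. Msh4 lay below the array median on all 10 arrays and Msh5 on 9 of them, while Trip13 lay above it on all 10. Spo11 was below the lower quartile on 4 arrays, those of 1 and 2 weeks, where a fold change may be understated. Signals of different genes come from different probes and are not set against each other here.

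Promoter windows of the members are shown because members moved in opposite directions against sorted cells. The windows are the 250 bases upstream of a transcript start in RefSeq on GRCm38.p6, which held 8 of the 9 genes (not Spo11). Psmc3ip was lower in every culture than in sorted cells, and its window is chr11:101095436-101095685 on the minus strand. Trip13 was the member above its sorted-cell level from 2 weeks on, and its window is chr13:73937768-73938017 on the minus strand. Capitals mark matches to the motifs described next, and the Trip13 window had none. The windows of Mlh3, also lower in every culture than in sorted cells, had none either. Whether a motif goes with the direction of a member was not tested.
Psmc3ip: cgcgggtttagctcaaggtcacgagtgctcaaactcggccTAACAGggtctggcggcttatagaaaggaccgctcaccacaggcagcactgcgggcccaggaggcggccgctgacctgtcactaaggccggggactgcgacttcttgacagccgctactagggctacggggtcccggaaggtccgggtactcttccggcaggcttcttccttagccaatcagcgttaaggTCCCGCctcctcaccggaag
Trip13: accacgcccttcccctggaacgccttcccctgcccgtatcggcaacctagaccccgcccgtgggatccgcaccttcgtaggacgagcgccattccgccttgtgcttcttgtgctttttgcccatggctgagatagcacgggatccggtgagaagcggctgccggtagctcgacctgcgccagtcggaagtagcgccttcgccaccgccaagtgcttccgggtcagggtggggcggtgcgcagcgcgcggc

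The windows of Msh4, Msh5 and Mei1 lie wholly within the gene's annotated span, which begins further upstream, and those of Dmc1, Mlh3, Mnd1 and Trip13 overlap it in part. Motifs of factors known to act on meiotic genes in the mouse were searched on both strands, and no match overlapped another. TCCCGC, the core of sites of E2F proteins such as the repressor E2F6, was in 16.9% of all 32851 windows and in those of Psmc3ip (20 bases upstream of the start), Dmc1 (13 and 240 bases) and Msh5 (65 bases). TAACNG, a site of MYB proteins such as MYBL1, was in 19.8% of all windows and in those of Psmc3ip (210 bases) and Msh4 (31 bases). CNCCTCAG, a motif of the meiotic initiator STRA8, was in 6.42% of windows and in that of Msh5 (82 bases). CACGTG, the E-box bound by MAX and MGA, was in 6.02% of windows and in none of the members' windows, and a missing match says only that these letters are not in that window.

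Spo11, which encodes the catalytic subunit that cuts the DNA, was the member with the widest range. Its signal was 339 and 312 at 0 weeks, 45.9 and 45.1 at 1 week, 65.6 and 63.8 at 2 weeks, 79.9 and 82.2 at 3 weeks, and 78.0 and 84.6 in GS cells. Both 0 week arrays stood far above all 8 cultured arrays, and the 1 week arrays were the lowest. The order of the groups was 1 week, 2 weeks, 3 weeks, GS cells and 0 weeks, and the arrays of 3 weeks and GS cells overlapped. Spo11 fell at 1 week against 0 weeks, with a log2 change of -2.84 ± 0.07 (SE, n = 2 each, limma, adjusted p = 4.2e-10), or 7.14-fold lower. It rose at 2 weeks against 1 week (log2 change 0.51 ± 0.07, adjusted p = 0.0002) and at 3 weeks against 2 weeks (0.32 ± 0.07, adjusted p = 0.011), and the change in GS cells against 3 weeks was 0.00 (95% interval -0.16 to 0.17, adjusted p = 0.97). GS cells were 4-fold below 0 weeks (-2.0 ± 0.07, adjusted p = 6.8e-09). The rise at 3 weeks did not pass with quantile, median or cyclic loess scaling (adjusted p = 0.14, 0.0541 and 0.148), nor without 2 weeks replicate 1 (0.34, adjusted p = 0.063) or 2 weeks replicate 2 (0.31, adjusted p = 0.087).

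Mei1 encodes a protein needed for SPO11 to make its breaks in the mouse. It measured 151 and 153 at 0 weeks, 124 and 88.7 at 1 week, 125 and 128 at 2 weeks, 174 and 137 at 3 weeks, and 178 and 139 in GS cells. Replicate 1 was well above replicate 2 at 1 week, 3 weeks and in GS cells, and the 0 week values lay within the ranges of 3 weeks and GS cells. The fall at 1 week against 0 weeks had a log2 change of -0.54 (SE 0.17, limma, adjusted p = 0.021) and was the only change of Mei1 that passed in the 7 comparisons. It did not pass without 0 weeks replicate 1 (-0.55, adjusted p = 0.076), 0 weeks replicate 2 (-0.53, adjusted p = 0.083) or 1 week replicate 2 (-0.30, adjusted p = 0.18). At 2 weeks against 1 week the change was 0.27 ± 0.17 (adjusted p = 0.23), which passed without 1 week replicate 1 (0.51, adjusted p = 0.033). Against 0 weeks the change in GS cells was 0.04, with a 95% interval of -0.34 to 0.43.

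**Figure D1:**
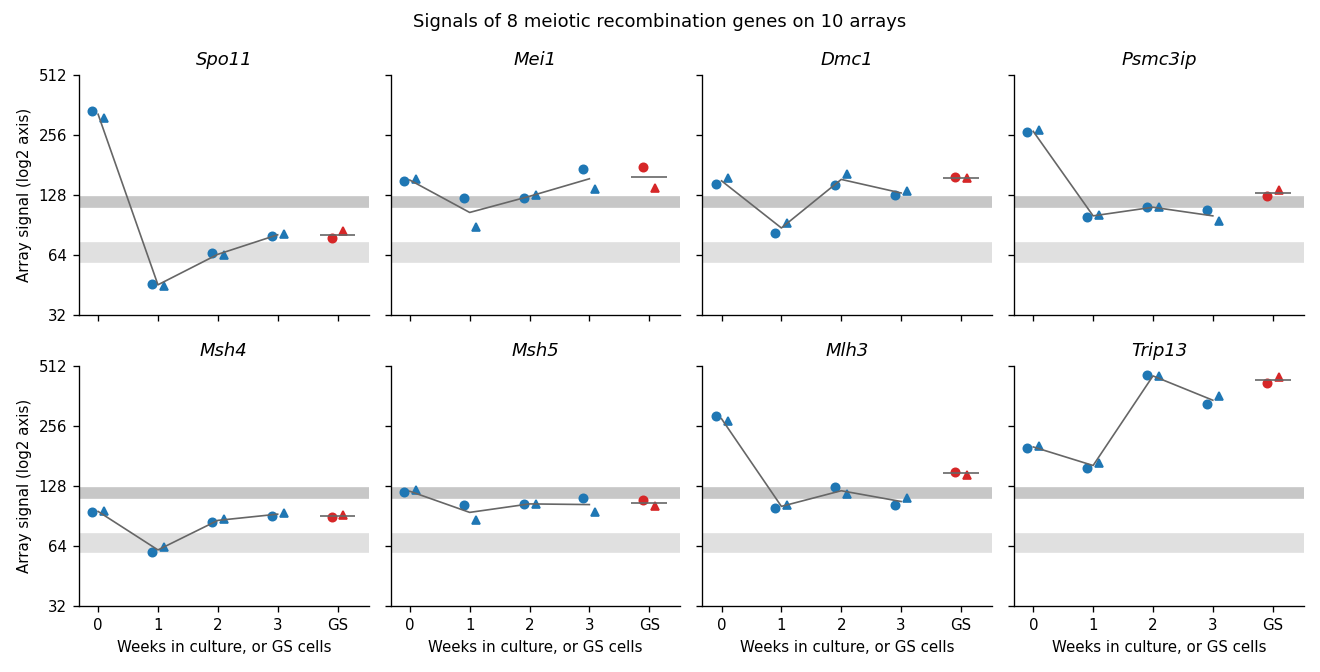
Signal of each gene on each array (log2 axis), by weeks in culture or GS cells. Circles are replicate 1 and triangles replicate 2, lines and short bars are geometric means, and the lighter and darker bands are the ranges of the arrays' lower quartiles and medians. Spo11, Psmc3ip and Mlh3 are highest at 0 weeks, and Trip13 is highest at 2 weeks.

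Dmc1, the recombinase that carries out strand exchange only in meiosis, dipped at 1 week and returned at 2 weeks. Its signal was 146 and 156 at 0 weeks, 82.9 and 92.8 at 1 week, 144 and 163 at 2 weeks, 128 and 135 at 3 weeks, and 157 and 155 in GS cells. The 1 week arrays lay below all others, and the ranges of 0 weeks, 2 weeks and GS cells overlapped. Dmc1 fell at 1 week against 0 weeks (log2 change -0.78 ± 0.09, limma, adjusted p = 2.4e-05) and rose at 2 weeks against 1 week (0.81 ± 0.09, adjusted p = 2.9e-05). At 2 weeks against 0 weeks the change was 0.02 (95% interval -0.17 to 0.22, adjusted p = 0.88), and in GS cells against 0 weeks it was 0.05 (-0.15 to 0.25, adjusted p = 0.69). In GS cells against 3 weeks Dmc1 rose by 0.25 ± 0.09 (adjusted p = 0.038). That call ended with quantile, median and cyclic loess scaling (adjusted p = 0.24, 0.095 and 0.19), with only the 2 groups compared in the fit (0.084) and with a trended robust variance (0.057). It also ended without either array of 0 weeks (adjusted p = 0.0506 for each), 3 weeks (0.17 and 0.060) or GS cells (0.091 and 0.085).

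Psmc3ip encodes HOP2, which joins MND1 to help DMC1 pair a broken end with its homologue. Its signal was 264 and 269.6 at 0 weeks, 99.4 and 102 at 1 week, 111 and 111 at 2 weeks, 107 and 94.5 at 3 weeks, and 127 and 136 in GS cells. Both 0 week arrays were above all cultured arrays, and both GS arrays were above the other cultured arrays, among which 1 week and 3 weeks overlapped. Psmc3ip fell at 1 week against 0 weeks (log2 change -1.40 ± 0.08, 2.65-fold lower, limma, adjusted p = 1.0e-07). At 2 weeks against 1 week the change was 0.14 (95% interval -0.03 to 0.32, adjusted p = 0.15), so the upper bound lies under the 0.81 measured for its partner in strand exchange, Dmc1; the difference between the genes was not tested. Psmc3ip rose in GS cells against 3 weeks by 0.39 ± 0.08 (adjusted p = 0.0026) and stayed 2.03-fold below 0 weeks there (-1.02 ± 0.08, adjusted p = 1.6e-06).

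The cluster shared by Mnd1 and Gm3833 was at 51.6 and 49.2 at 0 weeks, 46.8 and 50.5 at 1 week, 61.5 and 65.0 at 2 weeks, 57.0 and 64.9 at 3 weeks, and 53.6 and 54.3 in GS cells. All 10 values were below the lower quartile of their arrays. When each of the 28856 clusters was tested on its own in limma, this one rose at 2 weeks against 1 week (0.38 ± 0.08, adjusted p = 0.0039). Its change at 1 week against 0 weeks was -0.05 (adjusted p = 0.63). Against 0 weeks the cluster was higher at 2 weeks (0.33 ± 0.08, adjusted p = 0.0087) and 3 weeks (0.27 ± 0.08, adjusted p = 0.018). In GS cells against 0 weeks its change was 0.10 (adjusted p = 0.36).

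Msh4 and Msh5 encode the subunits of a clamp that stabilizes joined DNA molecules on the way to a crossover. Msh4 measured 95.3 and 95.6 at 0 weeks, 59.5 and 63.0 at 1 week, 84.3 and 87.8 at 2 weeks, 90.8 and 94.2 at 3 weeks, and 89.4 and 91.5 in GS cells. Msh5 measured 119 and 122 at 0 weeks, 103 and 86.5 at 1 week, 104 and 105 at 2 weeks, 112 and 95.3 at 3 weeks, and 109 and 101 in GS cells. The 1 week arrays of Msh4 were apart from all others, while those of Msh5 overlapped the range of 3 weeks and GS cells. Msh4 fell at 1 week against 0 weeks (log2 change -0.64 ± 0.06, limma, adjusted p = 1.2e-05) and rose at 2 weeks against 1 week (0.49 ± 0.06, adjusted p = 0.00013). Msh5 fell at 1 week against 0 weeks (-0.35 ± 0.10, adjusted p = 0.014), and its change at 2 weeks against 1 week was 0.14 (95% interval -0.09 to 0.37, adjusted p = 0.29). The fall of Msh5 did not pass without 0 weeks replicate 1 (-0.37, adjusted p = 0.0514), 0 weeks replicate 2 (-0.34, adjusted p = 0.067) or 1 week replicate 2 (-0.23, adjusted p = 0.12). In GS cells against 0 weeks the changes were -0.08 for Msh4 (-0.22 to 0.07) and -0.19 for Msh5 (-0.42 to 0.04).

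Mlh3 encodes a subunit of an endonuclease that cuts joined molecules into crossovers. It measured 286 and 269 at 0 weeks, 99.2 and 103 at 1 week, 126 and 116 at 2 weeks, 103 and 111 at 3 weeks, and 151 and 145 in GS cells. The 0 week arrays were the highest and the GS arrays next, and 1 week and 3 weeks overlapped at the low end. Mlh3 fell at 1 week against 0 weeks (log2 change -1.46 ± 0.07, 2.74-fold lower, limma, adjusted p = 6.2e-08), rose in GS cells against 3 weeks (0.47 ± 0.07, adjusted p = 7.0e-04) and was 1.88-fold lower in GS cells than at 0 weeks (-0.91 ± 0.07, adjusted p = 3.0e-06). Its rise at 2 weeks against 1 week was smaller (0.26 ± 0.07, adjusted p = 0.015) and did not pass without 1 week replicate 1 (0.23, adjusted p = 0.077) or 2 weeks replicate 1 (0.20, adjusted p = 0.13).

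Trip13 had the largest rise among the members. Its signal was 199 and 202 at 0 weeks, 158 and 166 at 1 week, 457 and 452 at 2 weeks, 329 and 359 at 3 weeks, and 421 and 449 in GS cells. The groups did not overlap, and their order was 1 week, 0 weeks, 3 weeks, GS cells and 2 weeks. Trip13 fell at 1 week against 0 weeks (log2 change -0.31 ± 0.07, limma, adjusted p = 0.0038), rose at 2 weeks against 1 week (1.49 ± 0.07, 2.81-fold, adjusted p = 8.8e-08) and fell at 3 weeks against 2 weeks (-0.40 ± 0.07, adjusted p = 0.0038). It was 2.17-fold higher in GS cells than at 0 weeks (1.12 ± 0.07, adjusted p = 4.7e-07). The fall at 1 week did not pass with median scaling (-0.24, adjusted p = 0.056) and that at 3 weeks not with quantile scaling (-0.16, adjusted p = 0.069). The rise in GS cells against 3 weeks (0.34 ± 0.07, adjusted p = 0.0035) turned to -0.09 with quantile scaling (adjusted p = 0.22) and measured 0.00 with cyclic loess (adjusted p = 0.98).

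In the first week of culture 8 of 8 members fell, a call made for 27.5% of the 20174 genes, and 0 rose in limma, also at an unadjusted p under 0.05, a call made for 30.3% of all genes. Their median log2 change was -0.71 against -0.04 over all genes. The falls spanned Spo11 at -2.84 to Trip13 at -0.31. As given above, those of Mei1 and Msh5 did not pass without some single arrays, and that of Trip13 not with median scaling. All 9 measured spermatid markers (median -5.04) and all 9 pachytene markers (median -4.73) fell in the same comparison, as did all 11 mitosis genes (median -1.48), and all 11 fibroblast markers rose (median 3.40), with a summed signal of 39751 to 40454 at 1 week against 6261 to 7236 at 0 weeks. Of 13 measured DNA replication genes 6 fell, 3 rose and 4 did not pass (median -0.26), and of 16 markers of undifferentiated spermatogonia 7 rose and 9 did not pass (median 0.09). All 5 measured Leydig markers and 6 of 9 Sertoli markers fell as well (medians -2.51 and -0.79). The part of these cell types in the falls of the members was not tested, and in bulk samples fewer cells of a type and less RNA per cell cannot be told apart.

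In the second week, from the arrays of 2 weeks against those of 1 week, Spo11, Dmc1, Msh4, Mlh3 and Trip13 rose, 5 of 8, a call made for 25.6% of all genes, and Mei1, Msh5 and Psmc3ip did not pass. A fall was called for 25.2% of all genes and 0 members, also at an unadjusted p under 0.05 in limma. The median change of the members was 0.38 against 0.06 over all genes. Mitosis genes rose in 11 of 11 cases (median 1.96), DNA replication genes in 12 of 13 (median 1.53) and undifferentiated spermatogonia markers in 14 of 16 (median 1.25), while all 11 fibroblast markers fell (median -2.79). The mitosis genes summed to 11364 to 11524 at 2 weeks, against 2831 to 3105 at 1 week, and the fibroblast markers to 6677 to 6700 at 2 weeks, against 39751 to 40454 at 1 week. Of the 9 spermatid markers 2 rose and 4 fell (median -0.05), and of the 9 pachytene markers 5 rose and 1 fell (median 0.24). Whether proliferation, the share of germ cells or other differences in makeup took part in the rises of the members was not tested.

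At 3 weeks against 2 weeks Spo11 rose and Trip13 fell, calls made for 7.71% and 16.5% of all genes, and 6 members did not pass. In that comparison 31.9% of the called genes were higher, against 49.5% with quantile and 54.8% with cyclic loess scaling. All 11 mitosis genes fell beside Trip13 (median -0.45), as did 12 of 13 DNA replication genes (median -0.52). Of 11 fibroblast markers 9 fell (median -0.45). Of 16 markers of undifferentiated spermatogonia 8 fell and 2 rose (median -0.24). In GS cells against 3 weeks Dmc1, Psmc3ip, Mlh3 and Trip13 rose, 4 of 8, a call made for 29.9% of all genes. A fall was called there for 17.2% of all genes and 0 members, also at an unadjusted p under 0.05 in limma. Of the genes called there 63.5% were higher, against 48.2% with quantile and 50.2% with cyclic loess scaling, and with those scalings only 2 of the 8 members rose. The 29.9% does not apply to those scalings. Fibroblast markers rose in that step as well (11 of 11, median 1.49; summed signal 12122 to 12744 in GS cells, against 3471 to 4394 at 3 weeks), and DNA replication genes rose in 12 of 13 cases (median 0.59). Of the 11 mitosis genes 5 rose and 6 did not pass (median 0.24). The part of these lists was not tested.

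**Figure D2:**
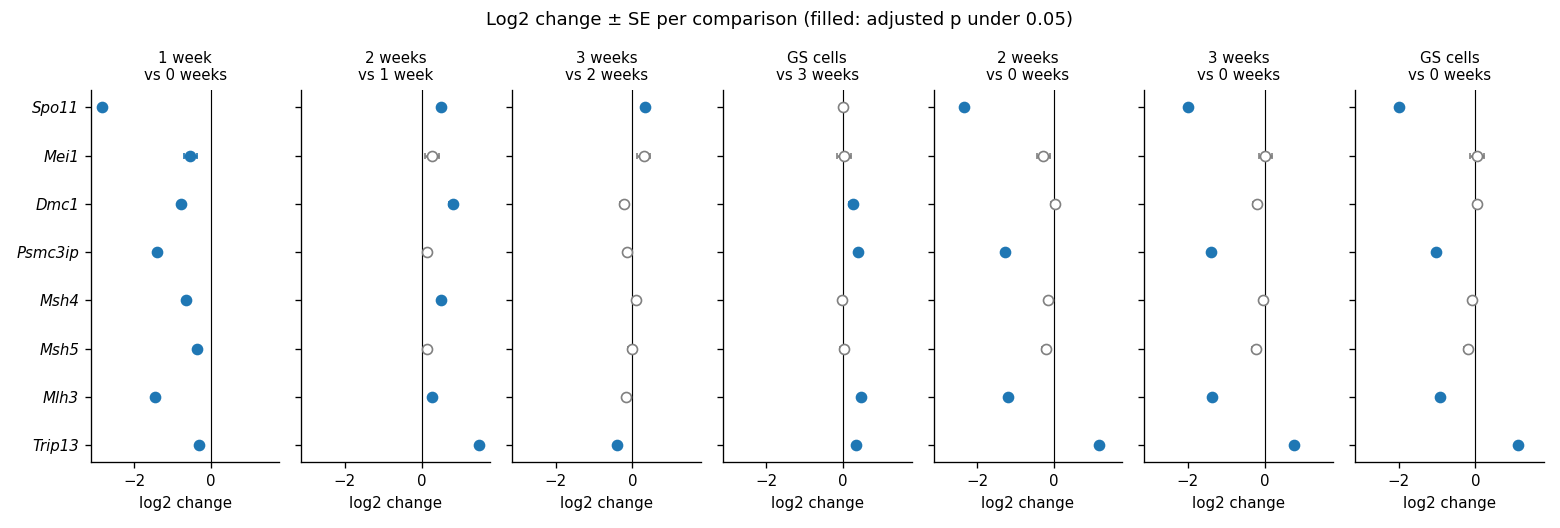
Log2 change ± SE (n = 2 arrays per group) of each gene in 7 comparisons, with the first-named group over the second. Filled points passed at an adjusted p under 0.05 in limma, and in the first panel all 8 genes lie left of 0.

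Against sorted cells, members differed in direction in the later groups. Trip13 was higher at 2 weeks (1.18), 3 weeks (0.78) and in GS cells (1.12), a call made for 25.4, 30.1 and 30.8% of all genes. Spo11, Mlh3 and Psmc3ip were lower at 2 weeks (-2.33, -1.20 and -1.26), at 3 weeks (-2.0, -1.38 and -1.40) and in GS cells (-2.0, -0.91 and -1.02), a call made for 21.3, 23.9 and 20.4% of all genes. Dmc1, Msh4, Msh5 and Mei1 passed in none of these comparisons, with changes of -0.27 to 0.05. Msh5 did pass with cyclic loess scaling at 2 weeks (-0.20), 3 weeks (-0.28) and in GS cells (-0.21), and at 3 weeks with quantile scaling (-0.20) and without 3 weeks replicate 1 (-0.34, adjusted p = 0.0357). Mei1 and Msh5 passed at 2 weeks when only these 2 groups were fitted (-0.27 and -0.21, adjusted p = 0.0033 and 0.0107). These comparisons share the 0 week arrays. Of the genes called at 2 weeks against 0 weeks 54.4% were higher, against 65.8% with median and 41.0% with cyclic loess scaling, and in GS cells against 0 weeks 60.2%, against 44.8% with cyclic loess. Median scaling moved the median of all genes at 2 weeks against 0 weeks to 0.14, compared with 0.03 as deposited. The authors' deposited table gives ratios of 3 weeks to 0 weeks of 0.249 for Spo11, 0.378 for Psmc3ip, 0.386 for Mlh3 and 1.71 for Trip13.

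Other genes of the pathway gave the members their context. For the counts in these lists, a fall at 1 week against 0 weeks was called for 27.5% of all genes and a rise for 30.3%. At 2 weeks against 1 week a rise was called for 25.6% of all genes and a fall for 25.2%. Of 13 measured genes of break formation and processing, 9 fell, 1 rose and 3 did not pass at 1 week against 0 weeks (median -0.35), and 12 rose at 2 weeks against 1 week (median 0.87). Hormad1, an axis protein that TRIP13 remodels, measured 219 and 232 at 1 week, against 813 and 858 at 0 weeks (log2 change -1.89 ± 0.10). Rec114, a partner of the break machinery, was the single riser of that step, with 100.04 and 83.0 at 1 week against 73.7 and 71.0 at 0 weeks (0.33 ± 0.11, adjusted p = 0.023). Exo1, the nuclease that trims broken ends, rose at 2 weeks against 1 week by 1.76 ± 0.07, and Atm, the kinase that signals breaks, by 1.31 ± 0.10.

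Of 18 measured genes of strand exchange and its partners, 12 fell, 1 rose and 5 did not pass at 1 week against 0 weeks (median -0.51). At 2 weeks against 1 week 12 rose, 2 fell and 4 did not pass (median 0.56). Rad51c, a gene of general DNA repair, fell in the first step (log2 change -1.86 ± 0.11) and rose in the second (1.95 ± 0.11). Hsf2bp, which brings BRCA2 to meiotic breaks in the mouse, measured 93.9 and 83.3 at 1 week, against 305 and 320.5 at 0 weeks (-1.82 ± 0.08). Brca2, which loads DMC1 onto DNA, rose at 2 weeks against 1 week by 1.82 ± 0.10.

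Of 16 measured crossover genes, 14 fell and 2 did not pass at 1 week against 0 weeks (median -0.67), and 14 rose at 2 weeks against 1 week (median 0.99). Rnf212, a crossover factor of the synaptonemal complex, fell at 1 week (log2 change -1.37 ± 0.08), as did Slx4, a scaffold of joint-cutting nucleases (-1.65 ± 0.08). Tex11, an X-linked meiotic gene needed for crossovers, measured 282 and 267 at 2 weeks, against 66.6 and 78.1 at 1 week (1.93 ± 0.15). Blm, a helicase that undoes joints, rose by 1.80 ± 0.11. Synaptonemal complex and meiotic cohesin genes had larger changes than most members, with 9 of 10 falling at 1 week (median -2.34) and 9 of 10 rising at 2 weeks (median 1.74); the difference from the members was not tested. Sycp1, the filament that spans that complex, rose by 2.77 ± 0.23, and Stag3, a meiotic cohesin, by 2.16 ± 0.07.

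**Figure D3:**
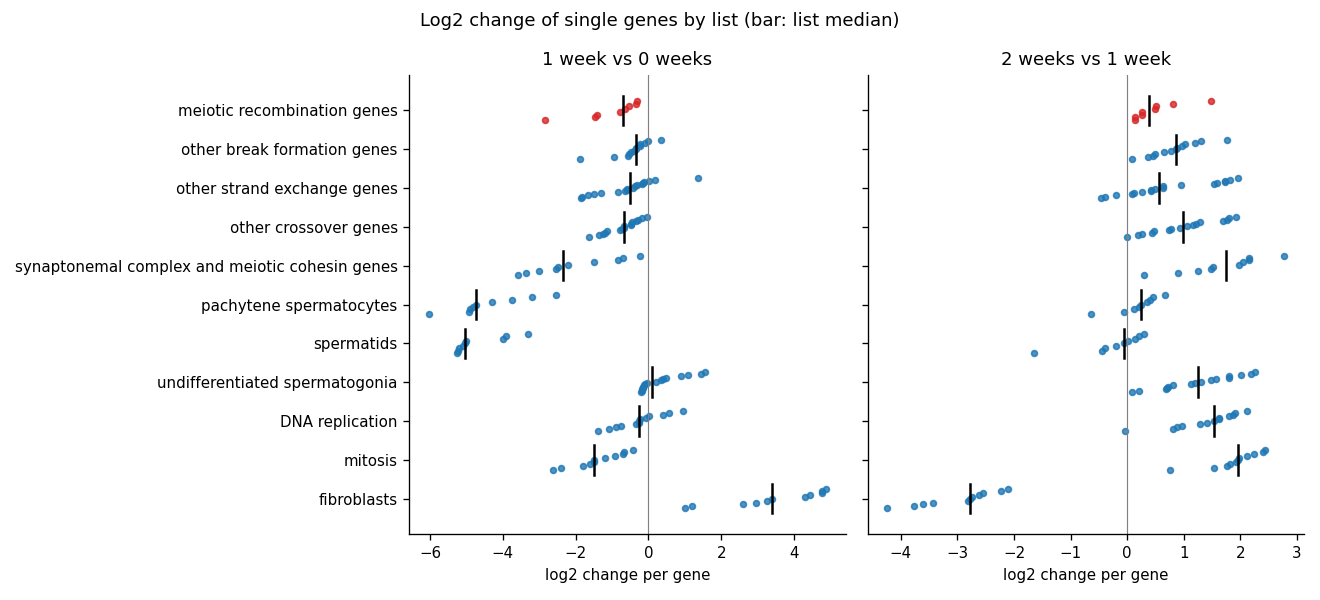
Log2 change of each measured gene (points) and the list median (black bar) at 1 week against 0 weeks and at 2 weeks against 1 week. Meiotic recombination genes (red) have medians of -0.71 and 0.38, and the synaptonemal complex and meiotic cohesin list -2.34 and 1.74.

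Of 12 measured regulators of meiotic transcription, 9 fell and 3 rose at 1 week against 0 weeks, and 10 rose and 2 fell at 2 weeks against 1 week. Mybl1, a factor that switches on pachytene genes in the mouse, measured 278 and 287 at 1 week against 962 and 1082 at 0 weeks, fell further at 2 weeks against 1 week (log2 change -1.27 ± 0.08), and was at 87.1 and 96.1 in GS cells. Stra8, induced by retinoic acid at the start of meiosis, measured 66.5 and 64.5 in GS cells, against 85.6 and 91.2 at 3 weeks (-0.43 ± 0.07), near the lower quartile of the arrays. Max and E2f6 rose at 1 week against 0 weeks by 1.55 ± 0.11 and 1.07 ± 0.09, while Meioc and Tcfl5 fell (-3.74 ± 0.18 and -2.39 ± 0.10). Pcgf6, of the same list, measured 185 and 183 at 1 week, against 671 and 642 at 0 weeks. L3mbtl2 measured 147 and 144 at 1 week, against 285 and 290 at 0 weeks. Dazl, an RNA-binding protein that germ cells need to enter meiosis, rose at 2 weeks against 1 week by 2.32 ± 0.10.

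The genes most like each member over the 10 arrays differed between members. They were taken from 6221 genes that varied by at least 1 on the log2 scale between group means and reached a signal of 200, with Pearson's r as the measure; the arrays lie in 5 pairs of replicates, so r mostly follows the 5 group means. Spo11 was most like Mlc1 (r = 0.997) and Pdha2 (r = 0.995); Pdha2 is a testis form of a pyruvate dehydrogenase subunit. Msh4 was most like Stag3 (r = 0.987) and Syce2 (r = 0.982), both genes of the meiotic chromosome axis or complex. Dmc1 was most like Slbp (r = 0.986) and Dtl (r = 0.977), genes of histone mRNA processing and of DNA replication control. Trip13 was most like Tubg1 (r = 0.996), a tubulin of the centrosome, and Mcm5 (r = 0.996), a subunit of the replicative helicase. Psmc3ip was most like Pcbp3 and Cfap298 (r = 0.994 and 0.992) and Mlh3 most like Aspscr1 and Arid2 (r = 0.995 and 0.994). Among the 6221 genes Msh5 and Mei1 had none as close, with at most r = 0.910 (BC049688) and 0.869 (Igsf9). Genes as dim on every array as Msh5 and Mei1 were not among those searched. Among the members themselves Mlh3 and Psmc3ip were most alike (r = 0.982), Dmc1 and Msh4 had r = 0.914, and Trip13 and Psmc3ip had r = -0.296.

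**Figure D4:**
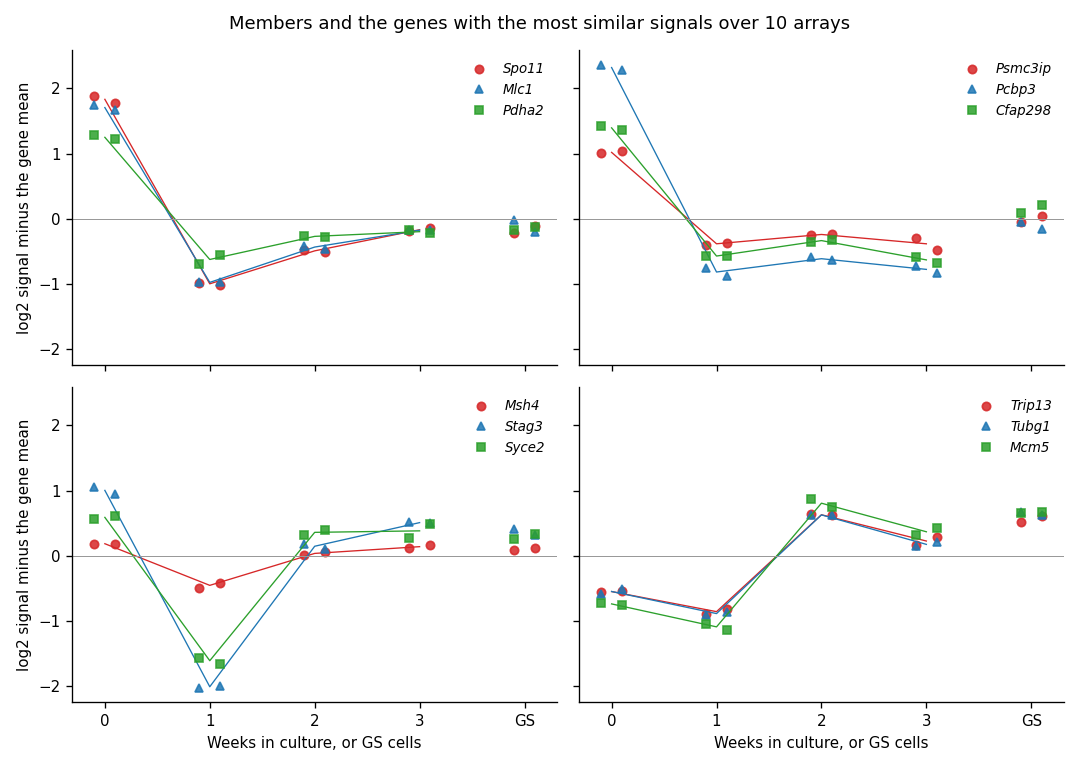
Log2 signal minus the gene's mean over 10 arrays, for Spo11, Psmc3ip, Msh4 and Trip13 and the 2 genes most like each. Points are arrays and lines join the means of 0 to 3 weeks; Trip13, Tubg1 and Mcm5 lie below 0 at 0 weeks and 1 week and above it in the other groups.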

How the data were processed

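The authors deposited linear array intensities of 28856 transcript clusters for 10 arrays, with annotation na32 on mm9 per the file headers. How the arrays were background-corrected, summarized and normalized is not given in the sources used here. Their table of comparisons, deposited beside it, adds intensity means of 0 and 3 weeks, equal to the geometric means of the arrays within 8.9e-07, and their ratio.

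A log2 was taken of each intensity (floor 1). Of the clusters 22439 carried 1 symbol; symbols were updated through RefSeq (GRCm38.p6) synonyms, and the brightest cluster stood for a gene, giving 20174 genes. Group means were fitted with limma 3.58.1 under R 4.3.3 (functions lmFit and eBayes; 5 residual and 4.39 prior degrees of freedom, median SD within groups 0.0908) and p-values adjusted by Benjamini-Hochberg over all genes. An adjusted p under 0.05 passed. Intervals are at 95%. The code was tested on simulated data. Members and lists were chosen with earlier results of these data known. Genes named from a list were picked from its 2 largest rises and 2 largest falls that passed in a comparison. The comparisons used were 1 week against 0 weeks, 2 weeks against 1 week and GS cells against 3 weeks. Not all genes that met this rule are named, and Pcgf6 and L3mbtl2 were added outside it. For each member the 2 genes of highest r were taken. Alternatives were 3 scalings, a filter on dim genes (16080 kept), a floor of 32, averaged or separate clusters, a trended robust eBayes, fits of 2 groups, a replicate block and leaving out each array. Some genes are not reported here.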

Additional observations from a re-analysis of the deposited data

How the results depend on the processing

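Recomputed member changes kept their direction and side of the threshold in 1056 of 1120 cases, 27 lost and 11 gained a call, and 26 turned direction, of which the change of Trip13 in GS cells against 3 weeks alone had passed as reported. Of 420 recomputed counts 15 moved by over 1.5 times, and the cause was not tested. At 3 weeks against 2 weeks 4875 genes passed, against 2834 with cyclic loess scaling and 1918 to 5842 when 1 array was left out (fewest without 2 weeks replicate 1). The number of members that rose there was 0 with quantile, median and cyclic loess scaling and 0 to 1 when 1 array was left out, and the number that fell was 0 with quantile scaling. In GS cells against 3 weeks 2 members rose with quantile and 2 with cyclic loess scaling. At 2 weeks against 0 weeks 5 members fell with only the 2 groups compared. The shares of all genes given in the Results belong to the reported fit and do not apply to these settings. These counts therefore do not set the members against all genes.

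Log2 changes near 0 that turned with cyclic loess scaling were those of Dmc1 at 2 weeks against 0 weeks (-0.014) and in GS cells against 0 weeks (-0.050), of Mei1 at 3 weeks against 0 weeks (-0.018), in GS cells against 0 weeks (-0.071) and against 3 weeks (-0.053), and of Msh4 at 3 weeks against 2 weeks (-0.00056) and in GS cells against 3 weeks (0.090). With quantile scaling Mei1 (-0.13), Msh4 (0.054) and Trip13 (-0.090) turned in GS cells against 3 weeks, and Msh4 in GS cells against 0 weeks (0.012). With median scaling Mei1 (-0.0030) and Spo11 (-0.022) turned in GS cells against 3 weeks, and Msh4 at 3 weeks against 0 weeks (0.0090).

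When 1 array was left out, Dmc1 ranged from -0.068 to 0.12 at 2 weeks against 0 weeks and from -0.00086 to 0.10 in GS cells against 0 weeks. Mei1 ranged from -0.15 to 0.19 at 3 weeks against 0 weeks, from -0.14 to 0.22 in GS cells against 0 weeks and from -0.16 to 0.20 in GS cells against 3 weeks. Msh5 ranged from -0.13 to 0.11 at 3 weeks against 2 weeks and from -0.089 to 0.14 in GS cells against 3 weeks, and Spo11 from -0.054 to 0.062 in GS cells against 3 weeks. A group left with 1 array was assumed to vary like the others.

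The labels do not say what a replicate number shares. Differences between replicates correlated across genes at 0.31 to 0.584 in the 6 pairs among 0 weeks, 1 week, 3 weeks and GS cells, and at -0.0668 to -0.0245 in the 4 pairs with 2 weeks, so the numbers were not taken to pair all groups. With the replicate block 5 members fell at 3 weeks against 0 weeks and 2 at 3 weeks against 2 weeks, as Dmc1 passed in both (adjusted p = 0.0293 and 0.0324) and Msh5 in the first (adjusted p = 0.0433). No share of all genes under the block is set beside these counts. With 2 arrays a group, changes small against their SE (from 0.06 for Msh4 to 0.17 for Mei1) were not resolved here. Signals of Spo11 at 1 week and 2 weeks and of Msh4 at 1 week were near or below the lower quartile of their arrays.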

Other observations

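Mismatch repair genes outside the members act on replication errors in dividing cells. Pms1 rose at 2 weeks against 1 week (log2 change 0.90 ± 0.11, SE, n = 2 each), with signals of 186 and 179 at 2 weeks, against 105 and 91.2 at 1 week. Msh3 fell at 1 week against 0 weeks (-0.43 ± 0.10), with signals of 122 and 145 at 1 week, against 174 and 184 at 0 weeks.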
